A study of Mus musculus with 8 samples.

Results

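Tubulin transcripts were measured in liver of mice that carried 1 or 2 intact copies of Mtap, the gene of methylthioadenosine phosphorylase, an enzyme of methionine salvage. The genes described are 10 named tubulins, Tuba1a, Tuba1b, Tuba1c, Tuba4a, Tuba8, Tubb2a, Tubb2b, Tubb4b, Tubb5 and Tubg1. Every probe set (the group of array probes that reports 1 transcript) annotated with exactly 1 gene symbol out of these was taken, which gave 18 of 45037 probe sets on the array and covered 8 of the 10 genes. Tuba1b and Tuba1c had no such probe set, since the 1 probe set naming Tuba1b and the 2 naming Tuba1c also name another gene, and they gave no values. The genes were put together with the difference between the genotypes known, led by Tuba4a. That difference is therefore described here with no p-value for any tubulin probe set. Counts from limma over these probe sets are description as well and support nothing.

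The 2 groups were 4 MTAP+/- livers, called heterozygous, and 4 MTAP+/+ livers, called wild-type. No treatment is named for any of the 8 animals, which were male, of strain C57BL/6 and 92 to 101 days old, with 1 array per mouse. How the altered Mtap allele was made, and whether animals of 1 genotype shared a litter or a collection time, is not given in the sources used here. Values are log2 signals, differences are heterozygous minus wild-type, and an error after a difference is its standard error from limma. The p-values of other genes measure the spread between these animals alone. The labels were borne out by Mtap, which was lower at 4 of 4 probe sets with differences from -1.63 to -0.80 (limma adjusted p from 0.00443 to 0.0414) and with every heterozygous liver below every wild-type liver. Hepatocyte markers other than Ass1 were bright in both groups, with Alb at 14.46 and 14.43 (means in heterozygous and wild-type liver). Ass1 was dim at its brightest probe set, at 4.75 and 4.81.

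Microtubules are hollow filaments built from dimers of alpha-tubulin and beta-tubulin, each encoded by several genes whose proteins differ mainly near their C-terminal ends. Gamma-tubulin is not part of the wall of the filament and sits in ring complexes from which new filaments grow. In hepatocytes microtubules carry secretory vesicles and lipoprotein particles, and the transport of bile components to the canalicular membrane depends on them. Cells also hold tubulin messages in balance with free tubulin dimers, by degrading them while they are being translated.

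Of the 10 genes 8 matched an entry in the RefSeq promoter table of build GRCm38.p6, and the 250 bases before the annotated start are printed for 4 of them. Tuba4a, Tubb2a and Tubb4b are shown because each had a bright probe set with a lower mean in heterozygous liver, and Tubb5 because its brightest probe set differed by 0.01. Sequences run 5′ to 3′ on the gene's strand. Capitals mark matches on either strand to any of 8 motifs, none of which overlapped another here. TATAA is the core of the TATA box, CCAAT the box of that name, GGGCGG the GC box and CACGTG an E-box. Pairs of heat shock element units were searched as GAANNTTC, facing inward, or as TTCNNGAA, facing outward. TGACGTCA is the cyclic AMP response element, while AGGTCA is a site bound by REV-ERB and ROR receptors.
Tuba4a, chr1:75219295-75219544, minus strand: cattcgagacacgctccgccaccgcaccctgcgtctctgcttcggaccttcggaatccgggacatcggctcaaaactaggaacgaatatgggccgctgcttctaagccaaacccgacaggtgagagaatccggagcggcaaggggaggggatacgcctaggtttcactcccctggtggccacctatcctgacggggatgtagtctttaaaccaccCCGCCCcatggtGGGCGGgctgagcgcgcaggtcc
Tubb2a, chr13:34078009-34078258, minus strand: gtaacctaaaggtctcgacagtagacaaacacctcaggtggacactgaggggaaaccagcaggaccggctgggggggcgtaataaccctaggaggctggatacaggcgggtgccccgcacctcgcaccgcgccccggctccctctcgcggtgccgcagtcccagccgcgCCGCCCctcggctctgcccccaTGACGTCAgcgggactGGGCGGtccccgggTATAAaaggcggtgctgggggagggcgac
Tubb4b, chr2:25224703-25224952, minus strand: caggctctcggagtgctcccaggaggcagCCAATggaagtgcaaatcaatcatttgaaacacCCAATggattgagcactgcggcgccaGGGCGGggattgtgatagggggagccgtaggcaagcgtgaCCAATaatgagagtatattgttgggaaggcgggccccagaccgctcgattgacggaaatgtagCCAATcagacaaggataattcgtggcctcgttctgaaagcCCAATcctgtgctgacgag
Tubb5, chr17:35838302-35838551, minus strand: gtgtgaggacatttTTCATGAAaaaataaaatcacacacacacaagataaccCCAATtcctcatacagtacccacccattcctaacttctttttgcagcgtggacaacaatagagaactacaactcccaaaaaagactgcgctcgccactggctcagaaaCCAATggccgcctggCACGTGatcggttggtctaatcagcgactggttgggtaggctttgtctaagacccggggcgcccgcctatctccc

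Tubb2b and Tubg1 had no entry in the table. The 3 printed promoters of genes that stood lower shared 1 of the searched motifs, the GC box. It was in 5 of 8 windows of the tubulin genes and in 32.7% of all 32851 windows of this length. The other 2 windows with it were those of Tuba1a, which differed by 0.03, and Tuba1b, which gave no values. Tuba4a held the GC box 35 and 23 bases before the start and had no match to the other 7 motifs. Tubb2a, a gene with a TATA box core at 29 bases, also held TGACGTCA at 59 bases, a motif found in 1.55% of all windows. Tubb4b held CCAAT at 5 places, from 221 to 19 bases before the start, where 33.8% of all windows hold it at least once. Tubb5 held CCAAT at 198 and 90 bases, CACGTG at 75 bases (6.02% of all windows) and TTCNNGAA at 236 bases (7.17%). Among the 8 windows CACGTG was found in Tuba8 and Tubb5, TTCNNGAA in Tuba1c and Tubb5, AGGTCA in Tuba8 (14.0% of all windows) and GAANNTTC in none (6.69%). These are matches of letters and not binding sites.

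Tuba4a, an alpha-tubulin gene active in many adult tissues, was lower in every heterozygous liver at its 2 bright probe sets. Its brightest probe set, 1417373_a_at, read 11.84, 11.91, 12.01 and 11.75 in heterozygous replicates 1 to 4 and 12.46, 12.31, 12.30 and 12.44 in wild-type replicates 1 to 4. The groups did not overlap and were 0.29 log2 units apart at their nearest livers. Means were 11.88 ± 0.11 and 12.38 ± 0.08 (SD, n = 4 each), a difference of -0.50 ± 0.10, or 70.7% of the wild-type signal. This probe set ranked above 99.3% of all probe sets by its mean signal.

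The second Tuba4a probe set, 1417374_at, read 10.23, 10.52, 10.55 and 10.22 in heterozygous and 11.09, 10.99, 10.88 and 11.02 in wild-type liver. Here too all 4 heterozygous livers lay below all 4 wild-type livers, with a gap of 0.34. The difference was -0.62 ± 0.11, or 65.2% of wild-type. The third, 1417375_at, lay between 5.86 and 6.07 in all 8 livers and differed by -0.02 ± 0.09, so the 3 probe sets of this gene did not give 1 answer. Over the 8 livers, after the mean of each genotype had been taken off, the first and second probe sets moved together (Pearson r = 0.88, exact permutation p = 0.00174, adjusted p = 0.0174; Spearman rho = 0.86, p = 0.00347, adjusted p = 0.0347; 10 relations between probe sets of 1 gene). This r was 0.76 without the 2 livers farthest from the median, heterozygous replicates 3 and 4. The third probe set gave r = -0.62 with the first (exact permutation p = 0.165, adjusted p = 0.278).

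Of the other alpha-tubulin genes, Tuba1a and Tuba8 gave overlapping groups, and Tuba1b and Tuba1c gave no values. Tuba1a, known best from developing and neuronal cells, read 6.56, 6.94, 6.86 and 7.05 in heterozygous and 7.05, 6.31, 7.02 and 6.92 in wild-type liver, a difference of 0.03 ± 0.17. Wild-type replicate 2 was the lowest of the 8. The 1 probe set of Tuba1a, 1418884_x_at, is of the x kind, whose probes can bind several transcripts. Its signal may therefore not be that of Tuba1a alone. Tuba8, a divergent alpha-tubulin, had probe sets with mean signals of 4.11 and 4.07, close to the array medians of 3.92 to 3.98, and differences of 0.01 ± 0.19 and 0.03 ± 0.14. No detection calls were used here, so signals this dim do not show that Tuba8 was expressed.

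**Figure D1:**
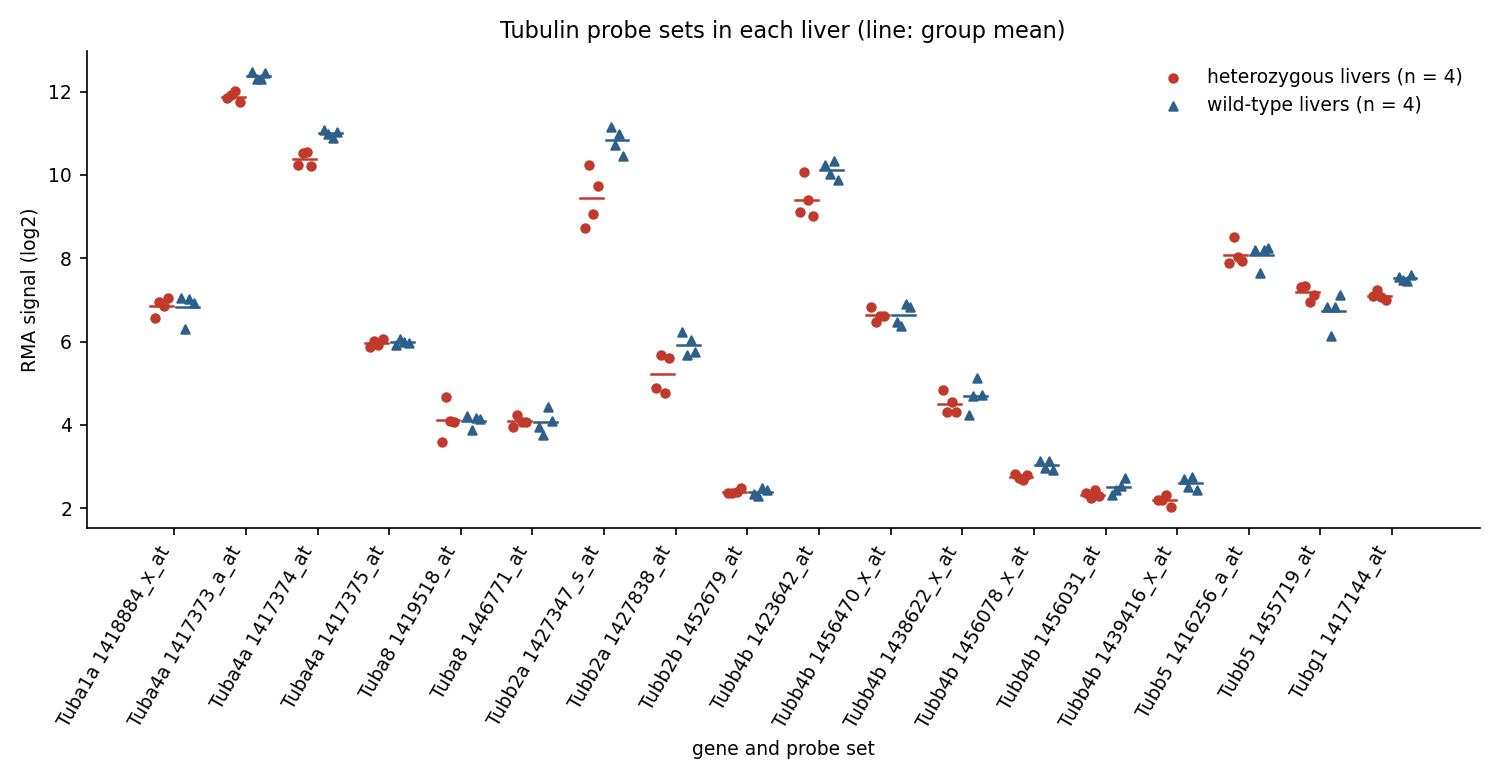
Signals (log2) of the 18 tubulin probe sets in 4 heterozygous livers (circles) and 4 wild-type livers (triangles), with lines at group means. The circles lie wholly below the triangles at the bright probe sets of Tuba4a, Tubb2a and Tubg1, while Tubb4b at 9.76 overlaps through 1 heterozygous liver.

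Among beta-tubulins the widest difference was in Tubb2a, a class of beta-tubulin abundant in brain and present in other tissues. Probe set 1427347_s_at read 8.72, 10.24, 9.07 and 9.73 in heterozygous and 11.15, 10.72, 10.99 and 10.46 in wild-type liver. The groups were 0.22 apart, and the heterozygous livers were spread over more than the wild-type livers (SD 0.68 and 0.30). The difference was -1.39 ± 0.29, with means of 9.44 and 10.83, or 38.1% of wild-type, and was -0.48 ± 0.58 with a score of clock genes, described with the clock genes, as a covariate. The suffix s marks probes shared by related transcripts, so signal from near-identical beta-tubulin transcripts cannot be told apart here. Tubb2b itself, at its own probe set, lay between 2.29 and 2.49 in all 8 livers and differed by 0.01 ± 0.09. Signals this dim, in a table that begins at 1.64, do not show that Tubb2b was expressed or that it was unchanged.

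The second Tubb2a probe set, 1427838_at, was dimmer and read 4.88, 5.68, 4.76 and 5.60 in heterozygous and 6.23, 5.68, 6.03 and 5.76 in wild-type liver. The groups touched at 5.68, the value of heterozygous replicate 2 and wild-type replicate 2, and the difference was -0.70 ± 0.22. Within genotypes both Tubb2a probe sets ran alike, with r = 0.91 (exact permutation p = 0.0278, adjusted p = 0.116; Spearman rho = 0.86, p = 0.0556, adjusted p = 0.237), which misses the threshold after adjustment over the 10 relations. Without heterozygous replicates 1 and 2, farthest from the median, r was 0.92. Heterozygous replicate 2 was the highest heterozygous liver at both probe sets.

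Tubb4b, a beta-tubulin made in most tissues, had 6 probe sets of very unequal brightness. The brightest, 1423642_at, read 9.10, 10.06, 9.41 and 9.01 in heterozygous and 10.23, 10.03, 10.33 and 9.89 in wild-type liver. Only heterozygous replicate 2 reached into the wild-type range, above wild-type replicates 2 and 4. The difference was -0.73 ± 0.21, or 60.5% of wild-type, and -0.95 without heterozygous replicate 2.

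The other 5 Tubb4b probe sets had mean signals from 2.40 to 6.63. At 1456078_x_at and 1439416_x_at, with means of 2.90 and 2.40, the heterozygous livers lay below the wild-type livers, by differences of -0.28 ± 0.09 and -0.41 ± 0.11. Both lie near the lowest signals of the table, which begins at 1.64, so that these small differences are between very dim signals. The remaining 3 overlapped, at -0.01 ± 0.14, -0.19 ± 0.18 and -0.17 ± 0.11. Within genotypes none of the 5 had a correlation with the brightest probe set that passed after adjustment over the 10 relations (r from -0.41 to 0.53, exact permutation p from 0.167 to 0.917).

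Tubb5, the beta-tubulin typical of dividing cells, did not share the lower signals. Probe set 1416256_a_at read 7.88, 8.50, 8.02 and 7.94 in heterozygous and 8.20, 7.65, 8.21 and 8.24 in wild-type liver, a difference of 0.01 ± 0.17. Probe set 1455719_at read 7.31, 7.34, 6.95 and 7.12 in heterozygous and 6.84, 6.13, 6.83 and 7.11 in wild-type liver, a difference of 0.45 ± 0.19 with overlapping groups. Wild-type replicate 2 was the lowest liver at both, as it was for Tuba1a. Proliferation markers, of which 7 of 8 were measured, ranged in their mean from 4.26 to 5.14 in heterozygous and from 4.23 to 5.83 in wild-type liver, and their part in these values was not tested.

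Tubg1, the main gamma-tubulin gene, had its 4 lowest signals in the 4 heterozygous livers. The single probe set read 7.10, 7.24, 7.08 and 6.99 in heterozygous and 7.56, 7.48, 7.45 and 7.59 in wild-type liver. The groups were 0.21 apart, and each was narrow (SD 0.10 and 0.07, n = 4 each). The difference was -0.42 ± 0.09, or 74.9% of wild-type. Leaving out any 1 liver kept it between -0.46 and -0.38.

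**Figure D2:**
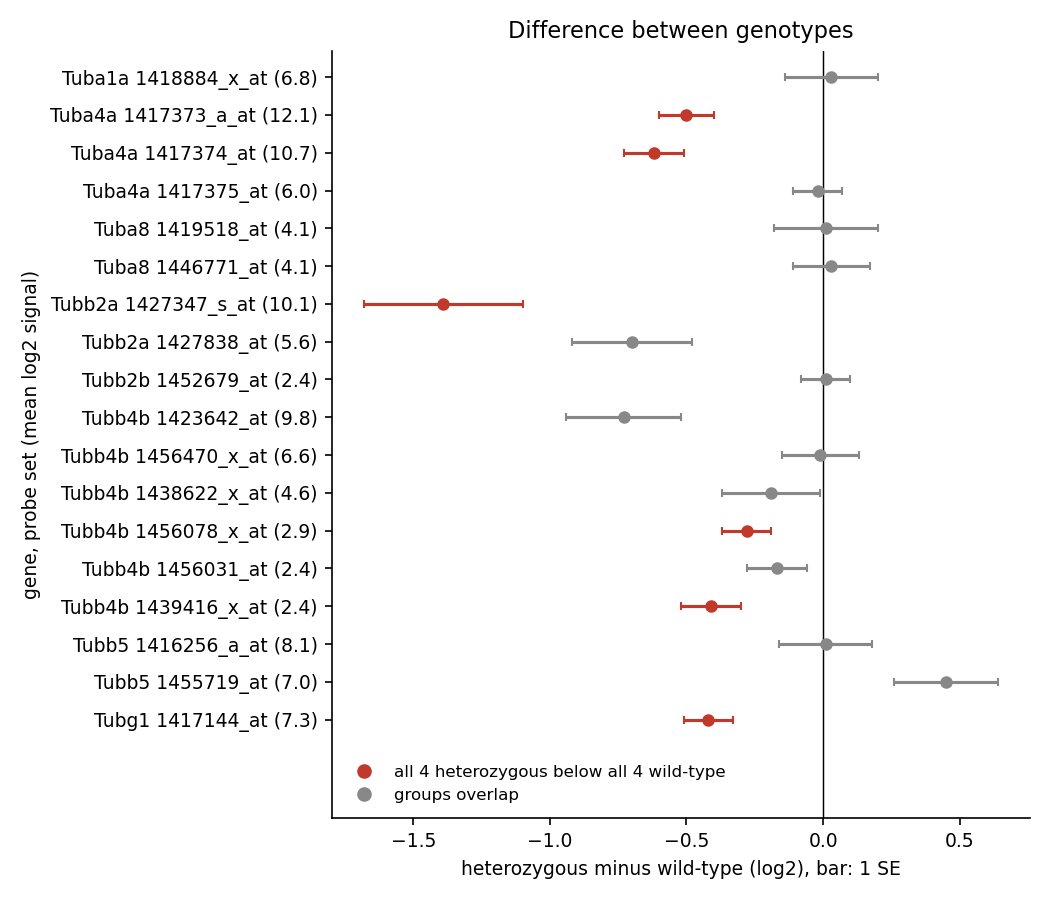
Heterozygous minus wild-type difference (log2) of each tubulin probe set, with a bar of 1 SE and, in brackets, the mean signal over 8 livers. Differences run from -1.39 at Tubb2a to 0.45 at Tubb5, and the 6 red points are probe sets at which all 4 heterozygous livers lay below all 4 wild-type livers.

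Counted over all 18 probe sets, 12 had a lower and 6 a higher mean in heterozygous liver, with a median difference of -0.18 where all probe sets had a median of -0.010. The groups did not overlap at 6 probe sets of 4 genes, all lower in heterozygous liver, and at 0 in the other direction. Over the whole array such separation was seen for 2.22% of probe sets on the lower side and 2.12% on the higher side. At a limma adjusted p under 0.05 over all probe sets, 0 of the 18 were called, and 0.0355% of all probe sets were. At an unadjusted p under 0.05, limma listed 8 of the 18 as lower and 1, of Tubb5, as higher, against 3.85% and 4.56% of all probe sets. These counts describe genes that were chosen on this contrast.

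The split by brightness, chosen after the values were seen, put 9 probe sets at a mean signal of at least 6 and 9 below it. Of the 9 bright ones 4 had groups apart, all lower, in Tuba4a (both), Tubb2a and Tubg1, where 3.46% of all probe sets this bright did on that side and 2.77% on the other, where the tubulins had 0. Their median difference was -0.42, against -0.020 for the 11228 probe sets this bright. Among the 9 dim ones the 2 with groups apart were those of Tubb4b. Without probe sets of the x and s kinds, whose probes can bind several transcripts, 3 probe sets with groups apart were left, both of Tuba4a and that of Tubg1.

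Whether the other tubulins followed Tuba4a from liver to liver was asked within genotypes, which is independent of the difference between them. After genotype means were taken off, the brightest probe set of Tubg1 had the highest correlation with Tuba4a out of 7 genes, r = 0.64 (exact permutation p = 0.146, adjusted p = 0.749; Spearman rho = 0.67, p = 0.132, adjusted p = 0.763). It was 0.91 without heterozygous replicates 3 and 4, the 2 farthest from the Tuba4a median. The others gave r = 0.41 for Tubb5, 0.34 for Tubb4b, 0.32 for Tuba8, 0.18 for Tuba1a, -0.11 for Tubb2a and -0.34 for Tubb2b. Those of Tuba8 and Tubb2b rest on dim signals. None of the 7 passed the exact permutation test, with p from 0.146 to 0.856, all of them over 8 livers. Tubb2a and Tuba4a, both lower in heterozygous liver, showed no shared order of livers within a genotype that could be detected with 8 animals.

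The genes most like Tuba4a in the same measure were not tubulins. Among 7013 genes with a mean signal of at least 6, the highest r over the 8 livers was that of Plbd1 (0.97), a phospholipase B-like protein, followed by Hsdl1 (0.97), Tgfbrap1 (0.96), Coro1b (0.94), an actin regulator, and Adcy9 (0.93), an adenylate cyclase. The lowest were Ice2 (-0.91), Med6 (-0.91), a Mediator subunit, Zfp33b (-0.90), Chic2 (-0.86) and Dcc (-0.85). Plbd1 was the one of these 10 with groups apart (-0.27 ± 0.09, limma adjusted p = 0.401), and the others had differences from -0.14 to 0.16. Of all 18193 genes 354 were apart on the higher side and 491 on the lower side. Tubg1 ranked 434 from the top, Tubb5 1392 and Tubb4b 1780. These values rest on 8 livers and are given as a description.

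Other genes of the microtubule system, taken from 6 hand-written lists, had differences centred near 0. Of 122 measured genes out of 129 listed, limma called 0 at an adjusted p under 0.05 over 18193 genes, where 0.0495% of all genes were called. At an unadjusted p under 0.05 it listed 8 higher and 2 lower, against 4.4% and 4.74% of all genes. Their median difference was -0.01, and 58 were higher and 64 lower.

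The remaining tubulin genes had 8 of 10 members measured, 6 lower and 2 higher, with a median of -0.09. Of all 18193 genes 9946 were lower. Most of these 8 genes had mean signals under 5 in both groups, so small differences among them are between dim signals. Tubd1, delta-tubulin, a protein of centrioles, read 4.86, 5.02, 5.30 and 4.97 in heterozygous and 5.56, 5.56, 5.49 and 5.26 in wild-type liver. Its groups overlapped by heterozygous replicate 3, and the difference was -0.43 ± 0.12 (limma adjusted p = 0.314). It was the 1 member of this list with an unadjusted p under 0.05, ahead of Tuba3b (-0.12) and Tubb4a (-0.11). Of all genes limma put 4.74% lower at that level.

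Genes that fold tubulin or control its messages (24 of 24 measured) had a median of -0.06 and 0 members with an unadjusted p under 0.05 by limma. They include the chaperonin subunits, prefoldins and tubulin cofactors. Nearest to it were Cnot11 (-0.30 ± 0.14, adjusted p = 0.557), a subunit of the deadenylase complex, the prefoldin subunit Pfdn6 (-0.25 ± 0.12, adjusted p = 0.599) and Scaper (0.21 ± 0.12, adjusted p = 0.658). Enzymes that modify tubulin (17 of 19 measured) had a median of 0.02 and likewise 0 such members by limma. Their members of smallest p were Ttll7 (-0.22), Ttll4 (-0.18), both of the ligase family that adds glutamates to tubulin tails, and the acetyltransferase Atat1 (-0.30), with adjusted p from 0.672 to 0.737. The Ttll7 signal was very dim, with means of 2.62 in heterozygous and 2.85 in wild-type liver.

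Nucleation genes, the partners of gamma-tubulin, had 19 of 19 members measured. Of these 13 had a higher mean in heterozygous liver, as did 8247 of all 18193 genes, with a median of 0.07, and 3 had an unadjusted p under 0.05, all higher, where 4.4% of all genes did. Limma called 0 of them over all genes. Haus2, an augmin subunit, read 7.33, 7.22, 7.46 and 7.39 in heterozygous and 7.01, 7.10, 7.08 and 7.05 in wild-type liver, with no overlap (0.29 ± 0.09, limma adjusted p = 0.355). Nedd1, which anchors gamma-tubulin rings, was at 0.49 ± 0.18 (adjusted p = 0.431) and the ring subunit Tubgcp5 at 0.28 ± 0.12 (adjusted p = 0.532). The mean of the list was 5.99, 5.96, 5.95 and 6.00 in heterozygous and 5.90, 5.93, 5.84 and 5.88 in wild-type liver. The groups did not overlap, but only narrowly (5.95 against 5.93 in the nearest livers), and no member passed over all genes.

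Microtubule-binding and severing proteins (28 of 29 measured) had a median of 0.00, with Map2 (0.32) and Clasp2 (0.34) higher and Clasp1 (-0.29) lower at an unadjusted p under 0.05 and adjusted p from 0.47 to 0.508 by limma. The Map2 signal was very dim, with means of 2.70 in heterozygous and 2.37 in wild-type liver. Motors and their subunits (26 of 28 measured) had a median of -0.04. The dynein light chain Dynlt3 (0.50 ± 0.17, adjusted p = 0.4), the kinesin Kif1b (0.32 ± 0.12, adjusted p = 0.45) and the dynactin subunit Dctn4 (0.30 ± 0.12, adjusted p = 0.459) were the 3 with an unadjusted p under 0.05. Actin, keratin and lamin genes (19 of 19 measured) had a median of 0.02 and 1 member, the tropomyosin Tpm4 (0.35 ± 0.15, limma adjusted p = 0.526), with an unadjusted p under 0.05, ahead of Msn (0.48) and Lmna (-0.21). Beside the counts of these lists, limma put 4.4% of all genes higher and 4.74% lower at an unadjusted p under 0.05.

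**Figure D3:**
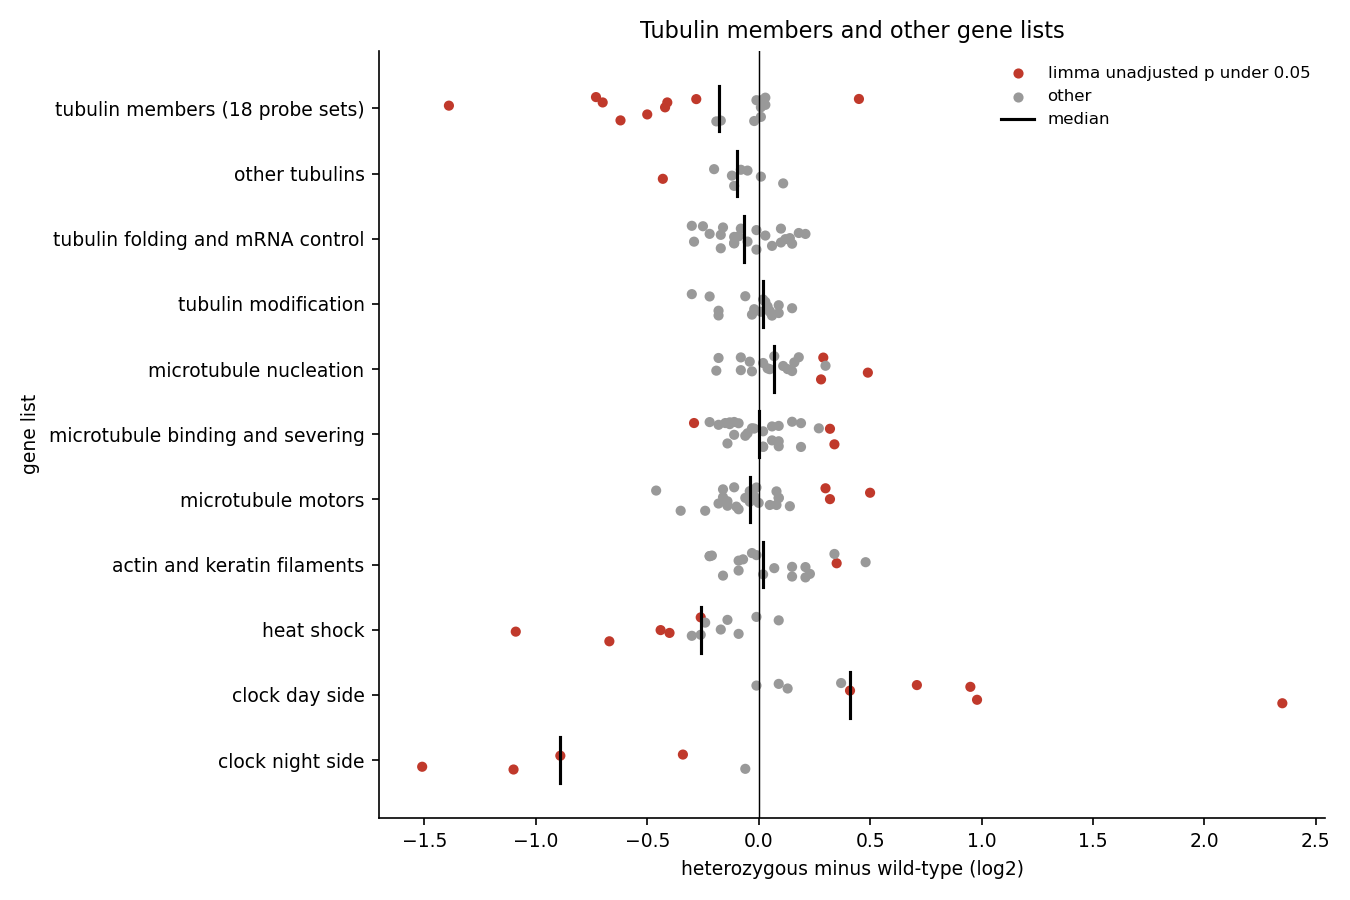
Heterozygous minus wild-type differences (log2) of the 18 tubulin probe sets and of the genes of 10 lists, 1 point per probe set or gene, with the median as a black bar. The tubulin probe sets reach from -1.39 to 0.45 around a median of -0.18, while medians of the microtubule lists lie between -0.09 and 0.07.

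Clock genes as a combined score separated the genotypes. Taken singly, the groups were apart for 2 of 9 day-side genes, on the higher side, and 4 of 5 night-side genes, on the lower side. Of all 18193 genes 354 were apart on the higher side and 491 on the lower side. A clock score, the mean of 9 day-side clock genes such as Dbp and Per3 minus that of 5 night-side genes such as Arntl and Nfil3, was 2.09, 1.96, 2.03 and 1.04 in heterozygous and -0.099, 0.403, 0.258 and 0.78 in wild-type livers. Among these genes limma called 0 over all genes and listed 5 day-side genes as higher and 4 night-side genes as lower at an unadjusted p under 0.05, against 4.4% and 4.74% of all genes. The scores did not overlap, though heterozygous replicate 4 and wild-type replicate 4 lay nearest each other. In this pair Tuba4a stood at 11.75 and 12.44, Tubg1 at 6.99 and 7.59, Tubb4b at 9.01 and 9.89, and Tubb2a at 9.73 and 10.46, the last 2 genes with their lowest wild-type value in this liver. With the score as a covariate the difference was -0.65 ± 0.21 for Tuba4a, -0.57 ± 0.20 for Tubg1, -0.91 ± 0.48 for Tubb4b and -0.48 ± 0.58 for Tubb2a. The standard errors of these fits were larger than without the score, and its part in the tubulin values was not tested.

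Heat shock genes (13 of 14 measured) had 12 members with a lower mean in heterozygous liver, as did 9946 of all 18193 genes, a median of -0.26 and 0 called by limma over all genes, while 5 had an unadjusted p under 0.05, all lower, where 4.74% of all genes did. Their smallest p-values were those of Hsph1 (-0.67 ± 0.13, adjusted p = 0.168), Dnajb1 (-0.40 ± 0.10, adjusted p = 0.237) and Hspa1b (-1.09 ± 0.28, adjusted p = 0.265). Their mean was 8.69, 8.65, 8.91 and 8.79 in heterozygous and 8.93, 9.13, 9.11 and 9.09 in wild-type liver. Within genotypes neither measure followed Tuba4a, Tubb2a, Tubb4b or Tubg1 in a way that passed the exact permutation test, with adjusted p from 0.664 to 0.983 for r over 8 relations. For the clock score r was 0.46 with Tuba4a, -0.52 with Tubb2a, 0.15 with Tubb4b and 0.52 with Tubg1. For the heat shock mean it was -0.02, -0.41, -0.35 and -0.55 in the same order. Leaving out the 2 livers farthest from each gene's median moved these values. For the clock score with Tubb2a it was -0.98 without heterozygous replicates 1 and 2, with Tuba4a it was -0.11 without heterozygous replicates 3 and 4, and with Tubb4b it was -0.71 without heterozygous replicates 2 and 4. For the heat shock mean the same omissions gave -0.73 with Tuba4a, -0.75 with Tubb2a and 0.17 with Tubb4b, so none of these values was stable to the livers included. With Tubg1 the clock score gave 0.24 and the heat shock mean -0.42. The part of the heat shock genes in the tubulin values was not tested.

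**Figure D4:**
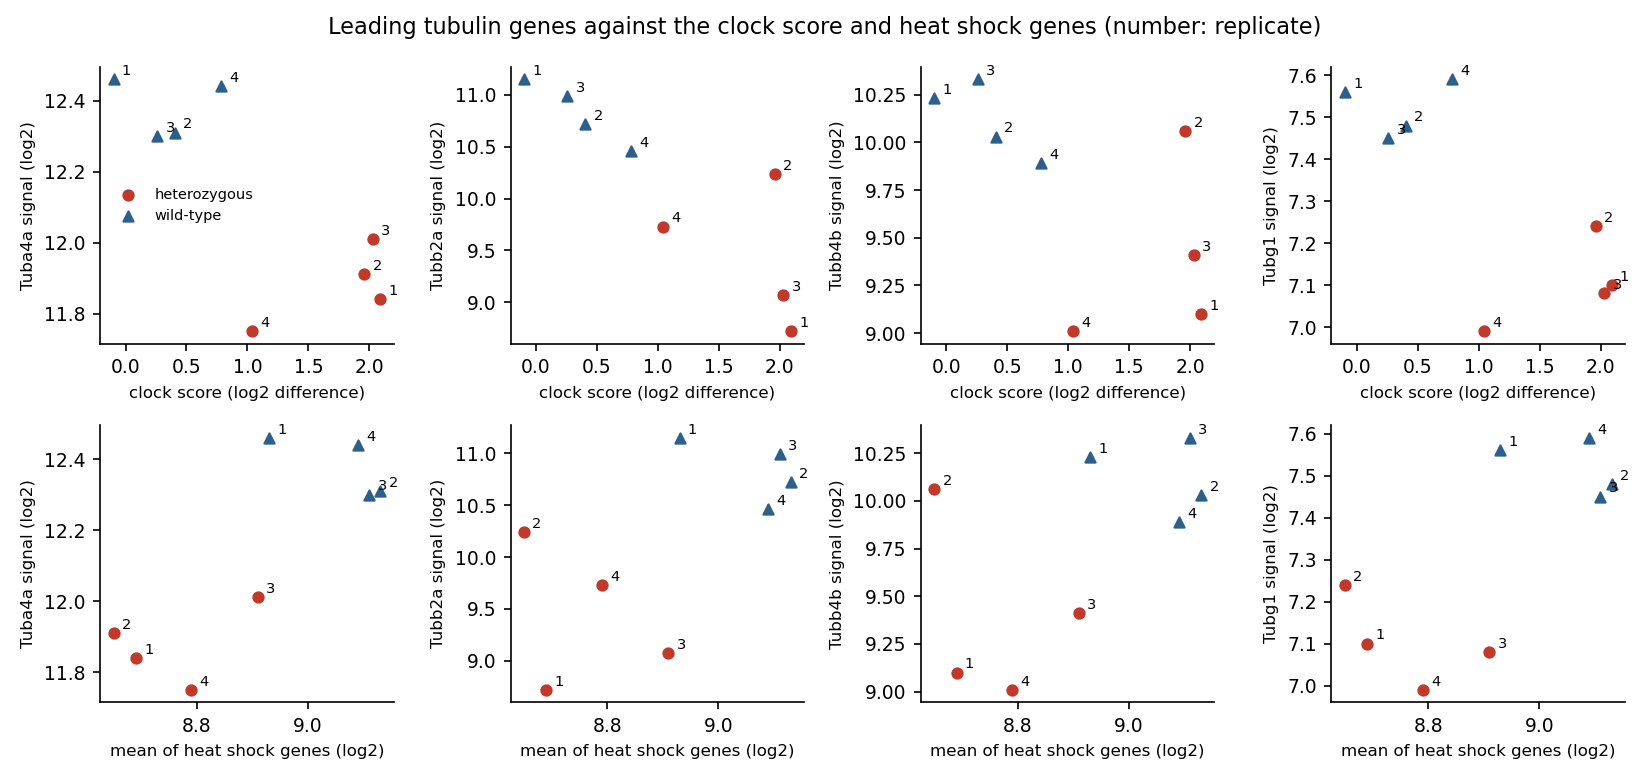
Signals (log2) of Tuba4a, Tubb2a, Tubb4b and Tubg1 in each of 8 livers against the clock score (top) and the mean of heat shock genes (bottom), with heterozygous livers as circles, wild-type livers as triangles and replicate numbers beside them. Both measures separate the genotypes, with clock scores of 1.04 to 2.09 in heterozygous and -0.099 to 0.78 in wild-type livers. The heat shock means do so only narrowly, at 8.65 to 8.91 in heterozygous and 8.93 to 9.13 in wild-type livers.

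Liver is a mixture of cell types, and less RNA per cell and fewer cells of a type cannot be told apart in these samples. The mean of the macrophage markers (8 of 8 measured) ranged from 7.80 to 8.61 in heterozygous and from 7.66 to 7.98 in wild-type liver, and lymphocyte markers (7 of 8 measured) from 4.83 to 5.27 and from 4.75 to 4.85, both with overlapping groups. Means of stellate (8 of 8 measured), endothelial (8 of 8) and cholangiocyte (6 of 7) markers overlapped as well, at 6.98 to 7.17 and 6.80 to 7.23, 6.74 to 7.06 and 6.66 to 6.92, and 3.69 to 3.89 and 3.81 to 3.96. The cholangiocyte markers Cftr and Cldn7 had mean signals under 3 in both groups. At an unadjusted p under 0.05 limma listed 4 of the 8 macrophage and 2 of the 7 lymphocyte markers as higher. It listed 0 of either as lower, where 4.4% of all genes were higher and 4.74% lower, and called 0 over all genes. The median difference was 0.46 for macrophage and 0.09 for lymphocyte markers. Hepatocyte markers (7 of 8) averaged 11.85 to 12.17 and 11.88 to 12.04. Their part in the tubulin values was not tested.

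Over all probe sets the arrays were split both across and along genotype. On a component with 28.3% of the variance wild-type replicate 4 and 3 heterozygous livers (replicates 1, 3 and 4) lay between -24.91 and -23.43 and the other 4 livers between 3.58 and 35.57. Wild-type replicate 4, on the side of the heterozygous livers, had Tuba4a and Tubg1 at 12.44 and 7.59, within or above the range of the other wild-type livers. Its Tubb2a and Tubb4b, at 10.46 and 9.89, were the lowest of the wild-type livers. The next component, with 22.0% of the variance, separated the genotypes, from 4.03 to 44.12 in heterozygous and from -29.47 to -11.25 in wild-type livers, as the lower tubulins did. Its part in the tubulin values was not tested. Heterozygous replicate 2, which was at 44.12 on that component and had the lowest 3′ minus 5′ control signal (0.713, others 0.88 to 1.12), was the highest heterozygous liver for Tubb2a, Tubb4b and Tubg1. This liver also had the highest mean of the 8 for macrophage (8.61), lymphocyte (5.27), endothelial (7.06) and hepatocyte (12.17) markers and for actin, keratin and lamin genes (8.72). It was not the highest for stellate, cholangiocyte, erythroid or proliferation markers, and the part of these measures in the tubulin values was not tested. Without heterozygous replicate 2 the differences were -1.66 for Tubb2a, -0.95 for Tubb4b and -0.46 for Tubg1.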

How the data were processed

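RNA came from 8 livers (TRIzol, then biotin labelling, per the labels). What the authors deposited is 1 log2 value for each probe set and array, from RMA, per the submitters' processing notes. RMA corrects background, quantile-normalises arrays and summarises probes. No version or setting of it was found in the labels, and no depth applies to arrays, whose number limits the precision.

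Of 45101 probe sets 64 controls were left out. Without further scaling, the genotypes were set against each other in limma 3.58.1 (lmFit, eBayes, two-sided) in R 4.3.3, with Benjamini-Hochberg adjustment over all probe sets for tubulins and, for lists, over 18193 genes, each as its brightest single-symbol probe set (34945 of the probe sets have 1 symbol, 932 several, 9160 none). RefSeq matched 34741 by gene ID and changed 0 symbols. Correlations within genotypes used exact two-sided permutation (576 rearrangements within genotype).

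The tubulin genes, lists, motifs and tests were chosen with earlier results of these data known. Named were all tubulin probe sets, up to 3 genes of smallest p per list (for cell type markers ranges and a few levels), the 5 genes most and least like Tuba4a, and Mtap. Dbp, Per3, Arntl and Nfil3 name the clock lists, together with Tef (0.71) and Cry1 (-0.89). Tests on simulated data for this comparison (18193 genes) recovered 27.9% of genes changed by 0.5 log2 units, 86.0% at 1 unit and 98.7% at 2 units. Alternatives were renewed normalisation, centring, weights, filters, the replicate number as a block, a clock covariate and each liver left out. No batch or scan date was in the sources used here.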

Additional observations from a re-analysis of the deposited data

Results flagged for a closer look

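In 1 of 36 groups of 4 livers tested (18 tubulin probe sets in each genotype) a liver stood apart from the other 3 by more than a 95% outlier limit allows. Tubb5 at probe set 1416256_a_at read 7.65 in wild-type replicate 2, while the other wild-type livers lay between 8.20 and 8.24. Chance flags about 1 in 20 such groups.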

How the results depend on the processing

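Under 16 alternatives 0 tubulin probe sets passed limma's adjusted threshold, and the count of those listed at an unadjusted p under 0.05 went from 3 with the clock score as covariate to 9. The number with groups apart, all lower, was 6 of 18, then 7 after renewed quantile normalisation or centring. Among fewer probe sets, it was 4 of 11 at a mean signal of at least 5 and 3 of 12 without x and s probe sets. With each liver left out it was 6 to 8, the highest without heterozygous replicate 2, while 1 was apart on the higher side without heterozygous replicate 3 or wild-type replicate 4. Groups separate more easily with 1 liver fewer, so these counts cannot be set against the count from all 8 livers. No share over all probe sets was taken under any of these alternatives. The median tubulin difference was -0.24 to -0.10 with each liver left out and -0.42 at a mean signal of at least 5. The Tuba4a difference was -0.54 to -0.46 with each liver left out, -0.65 with the clock score and -0.38 as the mean of its 3 probe sets. With the clock score the difference was -0.48 for Tubb2a (reported -1.39), -0.57 for Tubg1, -0.91 for Tubb4b, 0.43 for Tuba1a and 0.09 for Tubb2b. Other microtubule genes had 0 calls by limma under 15 alternatives, and 3 to 15 at an unadjusted p under 0.05 where the reported fit had 10. The cause of these shifts was not tested.

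The replicate block gave -0.50 for Tuba4a and changed no call of these genes. Nothing in the labels says that numbers mark shared animals or litters. Same-numbered livers deviated with correlations of -0.07, 0.22, 0.00 and 0.23. Heterozygous replicates 2 and 4 were closest to the wild-type liver of their own number, while replicates 1 and 3 were closest to wild-type replicate 4. Whether same-numbered livers shared more than a number cannot be told from these values. Over all probe sets the block gave 25 calls against 16. The count of 16 was 0 with the clock score, 9 at a mean signal of at least 5 and 5 to 21 with each liver left out.

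Within-genotype r with Tuba4a, each liver left out, ranged from -0.14 to 0.51 (Tuba1a), 0.25 to 0.44 (Tuba8), -0.34 to 0.14 (Tubb2a), -0.73 to -0.01 (Tubb2b), 0.04 to 0.49 (Tubb4b), 0.29 to 0.63 (Tubb5) and 0.42 to 0.93 (Tubg1). Without the 2 livers farthest from the Tuba4a median it was 0.54 for Tuba1a and 0.30 for Tubb2a.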
